A study of Mus musculus with 12 samples.

Results

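The 10 genes described here carry dopamine signals inside the projection neurons of the striatum: the dopamine receptor genes Drd1 and Drd2, the G protein subunit genes Gnal and Gng7, the regulator of G protein signalling Rgs9, the adenylyl cyclase gene Adcy5, the phosphodiesterase genes Pde10a and Pde1b, and Ppp1r1b and Ptpn5, which act on protein dephosphorylation. They were chosen by name. A peak of m1A, adenosine methylated on its first nitrogen, was counted for a gene when its summit lay in the gene's RefSeq span on the mouse build GRCm38. All 10 genes were found among the 49997 genes of the RefSeq table, and 9 of them held at least 1 summit. They held 107 of the 23413 peaks of the series, at 48 of its 13572 merged sites.

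Tissue came from the caudate putamen (CPu, the dorsal striatum) of adult male mice homozygous for a floxed Tet1 allele (Tet1 fl/fl), 2 weeks after stereotaxic injection of virus. Controls received AAV-EGFP and kept the genotype Tet1 fl/fl, and the knockout (KO) group received AAV-Cre-EGFP and is labelled Tet1 delta/delta. Each genotype had 3 pull-down libraries with an m1A antibody and 3 input libraries, and each peak list was called from a pull-down against its own input. The promoter of the Cre virus, the share of cells infected and the pooling of animals are not given in the sources used here, and dissected tissue also holds cells that no virus reached. The labels do not say that numbered libraries came from separate animals, so the p-values below reflect library-to-library spread, which can be technical in part or in full.

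Dopamine reaches medium spiny neurons, the projection neurons of the striatum, through D1-type receptors, which raise cyclic AMP, and D2-type receptors, which lower it. The olfactory-type G protein made of Gnal and Gng7 with a beta subunit couples D1 receptors to the cyclase Adcy5. Phosphodiesterases remove cyclic AMP, and protein kinase A phosphorylates DARPP-32, the product of Ppp1r1b, which then inhibits protein phosphatase 1. In RNA, m1A is best known from transfer and ribosomal RNA, and in messenger RNA it has been mapped most often near the start of transcripts.

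Of these genes, 8 had start sites in the RefSeq table of GRCm38.p6 start windows, and Ppp1r1b and Gnal had none there. The 250 bases upstream of a start are shown for the 4 genes called in at least 5 lists that had a summit within 1000 bp downstream of a listed start, because their start-proximal sites can be measured from an annotated start. The summits lay 222 to 344 bp downstream in Gng7 (4 libraries), 382 to 389 bp in Pde1b (3 libraries), 234 and 284 bp in Pde10a (2 libraries) and 213 bp in Adcy5 (1 library). The 2 Pde10a peaks were weak, at fold enrichment percentiles of 0.697 and 3.79 in the lists of controls 2 and 3. The windows of Adcy5 and Pde10a lie inside the gene spans, which begin at 35154494 and 8525187. Sequences run 5′ to 3′ on the gene's strand, and capitals mark matches to the GC box (GGGCGG, or CCGCCC on the other strand) and to the CCAAT box (CCAAT, or ATTGG on the other strand). None of these matches overlapped another.
Gng7, chr10:81014926-81015175, minus strand: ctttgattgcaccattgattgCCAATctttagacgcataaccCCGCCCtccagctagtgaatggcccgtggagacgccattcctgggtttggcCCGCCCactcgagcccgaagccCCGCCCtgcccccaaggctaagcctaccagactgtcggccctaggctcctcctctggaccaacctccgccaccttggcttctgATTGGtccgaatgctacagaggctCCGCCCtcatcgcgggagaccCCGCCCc
Pde1b, chr15:103502784-103503033, plus strand: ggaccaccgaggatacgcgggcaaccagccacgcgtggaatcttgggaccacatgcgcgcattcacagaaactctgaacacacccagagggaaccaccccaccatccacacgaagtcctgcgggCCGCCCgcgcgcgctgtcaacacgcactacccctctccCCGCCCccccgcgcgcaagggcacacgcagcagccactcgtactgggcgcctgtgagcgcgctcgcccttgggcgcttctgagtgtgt
Pde10a, chr17:8801495-8801744, plus strand: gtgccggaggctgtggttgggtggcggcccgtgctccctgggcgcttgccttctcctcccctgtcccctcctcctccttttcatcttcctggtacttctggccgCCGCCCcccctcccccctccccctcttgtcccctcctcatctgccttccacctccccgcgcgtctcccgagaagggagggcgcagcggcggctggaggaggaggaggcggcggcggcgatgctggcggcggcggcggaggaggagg
Adcy5, chr16:35154614-35154863, plus strand: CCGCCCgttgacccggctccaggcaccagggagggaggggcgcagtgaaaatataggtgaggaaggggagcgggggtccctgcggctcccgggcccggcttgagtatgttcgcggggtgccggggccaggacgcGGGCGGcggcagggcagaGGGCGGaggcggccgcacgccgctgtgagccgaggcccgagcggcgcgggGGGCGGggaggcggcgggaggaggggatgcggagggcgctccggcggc

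All 4 windows were richer in G and C than the median window, at 62.8% in Gng7, 67.2% in Pde1b, 72.8% in Pde10a and 78.0% in Adcy5 against a median of 52.4% over 32851 RefSeq windows. The window of Adcy5 was the richest of the 4, at percentile 97.9 of all windows, and held 32 CpG dinucleotides where the median window held 6. GC boxes numbered 5 in Gng7, 4 in Adcy5, 2 in Pde1b and 1 in Pde10a, and 32.7% of all windows held at least 1. Gng7 also had 2 CCAAT boxes, a motif present in 33.8% of windows. The peaks themselves lie in transcribed sequence downstream, which was not analysed here, and a motif match in a window is a description of the DNA only.

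Peak calls in these genes were uneven across libraries. Controls 1, 2 and 3 had 9, 17 and 20 peaks in them, and KO 1, 2 and 3 had 14, 30 and 17. KO 2 stood highest and control 1 lowest, and the ranges of the genotypes overlapped. The caller used 459332 pull-down tags in control 1, 1097292 in control 2 and 864206 in control 3, and 1235247, 2508102 and 1336328 in KO 1, 2 and 3, and the shallowest KO library had more tags than the deepest control. Control 1 was also called with all duplicate tags kept, and 72.4% of its peaks had exactly the modelled fragment length, compared with 11.8% to 16.0% in the other lists. The part of depth and of these settings in the counts was not tested.

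Means were 20.3 ± 8.50 peaks (SD, n = 3) in KO and 15.3 ± 5.69 (SD, n = 3) in control, a difference smaller than the spread between libraries (exact two-sided permutation p = 0.6, n = 3 per group, smallest possible p 0.1). Genes of the set with a peak numbered 4, 7 and 5 in controls 1 to 3 and 7, 9 and 6 in KO 1 to 3, with means of 5.33 ± 1.53 and 7.33 ± 1.53 (SD, n = 3; exact permutation p = 0.3). As a share of all peaks in a list the set made up 0.283%, 0.494% and 0.666% in controls and 0.370%, 0.432% and 0.556% in KO (exact permutation p = 0.9, n = 3). Over the 4 comparisons of this kind every Benjamini-Hochberg adjusted p from these exact permutation tests was 1. Without control 1 and KO 2 the mean number of peaks was 3 lower in KO than in control, the opposite direction (exact permutation p = 0.667).

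**Figure D1:**
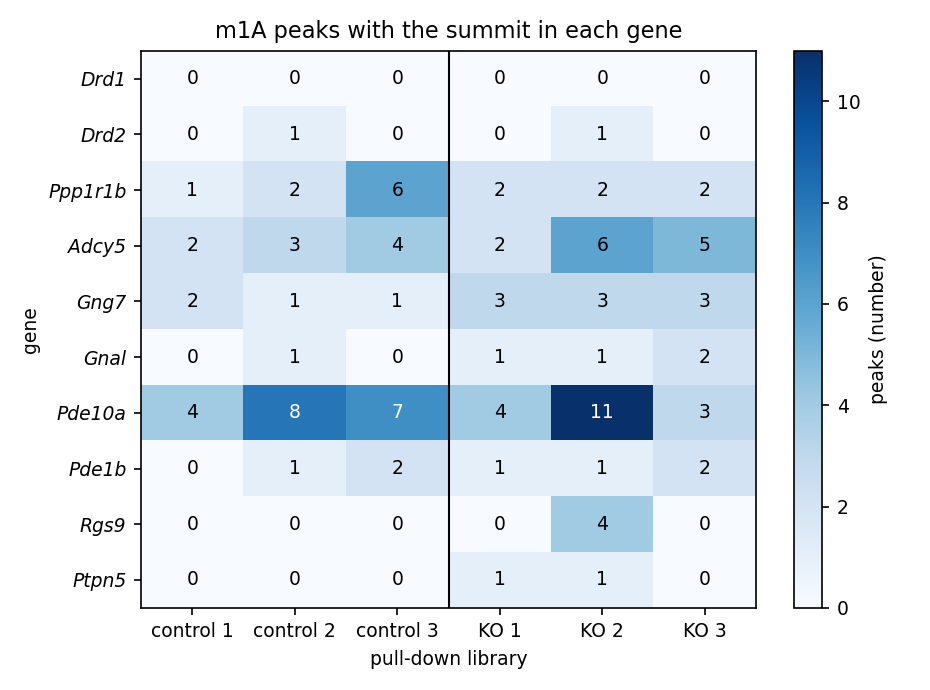
Number of peaks with the summit in each gene (rows) in each of the 6 pull-down libraries (columns, controls left of the line); darker cells hold more peaks. Pde10a has the most in KO 2 (11), Drd1 has 0 throughout, and Rgs9 has its 4 peaks in KO 2 alone.

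Adcy5, Ppp1r1b, Gng7 and Pde10a had a peak in all 6 lists. Among the 5746 protein-coding genes with any summit, 8.77% were in all 6 lists, and 26.2% of the 21900 protein-coding genes had a summit at all. Another 3 genes of the set were called in both genotypes: Pde1b in 5 lists, Gnal in 4 and Drd2 in 2. Rgs9 and Ptpn5 were called in KO lists alone and no member in control lists alone, where the corresponding shares over protein-coding genes with a summit were 32.4% and 21.6%. Rgs9 rested on KO 2, and Ptpn5 on KO 1 and KO 2 with a single peak each. These numbers are a description, since the genes were picked with earlier results known and several have long spans.

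Of the dopamine receptor genes of the set, Drd2 had peaks and Drd1 had none. Drd1, whose product is the receptor of the direct pathway, spans 4.48 kb on chromosome 13 from 54051183 to 54055658 on the minus strand and was without a peak in each of the 6 lists. Drd2, whose product marks the indirect pathway, spans 67.8 kb on chromosome 9 from 49340360 to 49408177 on the plus strand and had 2 peaks, neither called in a second library. Its KO 2 peak lay 19.2 kb from the gene's start with a fold enrichment of 10.3, and the control 2 peak lay 64.6 kb from the start, with 3.71, inside the overlapping long non-coding RNA gene Gm46111. Fold enrichment is the caller's own value, the coverage at the summit over the local background, and it describes a peak within its list. A missing peak shows neither an unmethylated nor an absent transcript.

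Gng7, the gamma subunit of the striatal G protein, had the most compact pattern, with 3 sites, each shared by at least 3 lists. It spans 66.3 kb on chromosome 10 from 80948624 to 81014925 on the minus strand, and its sites are numbered by rising coordinate, so that site 3 is the start-proximal site. Site 1 (80983300 to 80983607), about 31.5 kb into the gene, had fold enrichments of 16.0, 17.5 and 13.6 in controls 1 to 3 and 11.6, 11.9 and 12.1 in KO 1 to 3. Every control lay above every KO library there. The same was true of 16.2% of the 402 regions called in all 6 lists, and the reverse of 2.74%, so this order was common across the series. Tag coverage at its summit, the pileup, was 23, 38 and 31 in controls and 26, 51 and 31 in KO, and these ranges overlapped. Within each list the peak stood in the top of the fold enrichment ranking, at percentiles of 87.6 to 96.6.

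Site 2 of Gng7 (80983708 to 80983985) was the only site of the set called in all KO lists and in no control list. It lay just beyond site 1, with fold enrichments of 9.02, 8.22 and 6.03 and pileups of 14, 27 and 13 in KO 1, 2 and 3. Of all regions, 1.41% had this KO-only pattern and 0.796% the control-only pattern, which no site of the set showed. With 1 of 48 sites the set was near that background. The pileups at site 2 were low, KO libraries had more tags, and the part of depth in this call was not tested. Site 3 (81014344 to 81014808), 222 to 344 bp from the start, was called in the 3 KO lists with fold enrichments of 6.51, 8.34 and 6.43 and in control 1 with 8.66, at pileups of only 9 to 16.

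Gnal encodes the alpha subunit of the same G protein, and its main site was called in 4 lists. The gene spans 138 kb on chromosome 18 from 67088298 to 67226792, and its strand is not in the tables used here. Site 1 (67137842 to 67138374), 49.6 to 49.7 kb from the lower-coordinate end, had fold enrichments of 8.42, 6.49 and 6.33 in KO 1, 2 and 3 and 6.41 in control 2. Pileups were 11 to 18 there, and the control 2 value lay within the KO range. A second site, called in KO 3 alone, had a fold enrichment of 8.56. Rgs9, which speeds the return of G proteins to rest and is enriched in striatum, spans 72.8 kb on chromosome 11 (109225348 to 109298181, minus strand). All 4 of its peaks came from KO 2, the deepest library, 3 of them in the last 10% of the span, with fold enrichments of 3.32, 6.49, 4.48 and 6.78 in order of rising coordinate.

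Adcy5, the cyclase that makes most cyclic AMP in striatum, had a pair of summits with high coverage early in its span in most libraries. It spans 151 kb on chromosome 16 from 35154494 to 35305743 on the plus strand, and 11 of its 22 peaks lay in the first 10% of that span. The shared site 2 (35155607 to 35157060) held an upstream summit 1254 to 1265 bp and a downstream summit 1864 to 1889 bp from the RefSeq start. Controls 1 and 2 and KO 2 and 3 had both summits, while control 3 joined them in a single peak of 1433 bp and KO 1 had only the downstream peak. The highest fold enrichments at the site were 8.0, 7.33 and 9.36 in controls 1 to 3 and 9.98, 6.84 and 7.62 in KO 1 to 3, which overlapped. Those of control 1 and KO 2 came from the upstream summit, and their downstream values were 4.99 and 3.73. Within their lists the peaks of the site ranked from percentile 4.51 (KO 2, downstream) to 84.9 (control 1, upstream) in fold enrichment. The downstream summit had pileups of 132, 202 and 192 in controls and 158, 132 and 163 in KO.

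The bases called at site 2 of Adcy5 did separate the genotypes. Peaks covered 861, 1333 and 1433 bp in controls 1, 2 and 3 and 259, 446 and 594 bp in KO 1, 2 and 3. Every control was wider than every KO library, a pattern found in 7.71% of regions called in all 6 lists, with the reverse in 4.73%. The first peak of this site began at position 35155662 in control 1, 35155607 in control 2 and 35155628 in control 3, and at 35156605, 35156030 and 35156028 in KO 1, 2 and 3. KO 3 also had a separate peak nearer the start, site 1 (35154944 to 35155172, fold enrichment 5.75). Whether duplicates, input coverage or other settings of the caller bear on the width was not tested. A second stretch, 114 to 122 kb from the start, held 6 sites, of which site 5 (35268603 to 35268844) was shared by KO 2 (fold enrichment 9.80) and KO 3 (5.11). At the far end of the span, site 11 was shared by controls 2 and 3 with 4.67 and 4.57.

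**Figure D2:**
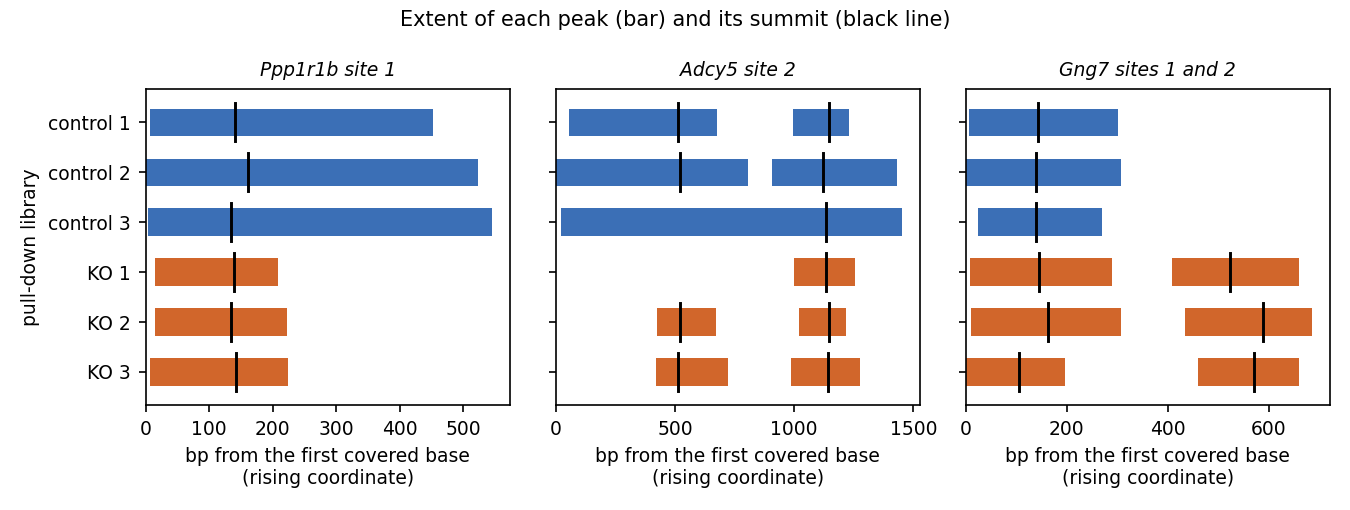
Extent of every called peak (bar) and its summit (black line) in each library at Ppp1r1b site 1, Adcy5 site 2 and Gng7 sites 1 and 2; the x axis is bp from the first covered base of each panel, and blue is control, orange KO. Control bars reach 446 to 543 bp at Ppp1r1b site 1 where KO bars reach 194 to 218 bp, and Gng7 site 2 has bars in KO libraries alone.

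Pde10a, a phosphodiesterase concentrated in medium spiny neurons that breaks down cyclic AMP and cyclic GMP, had the most peaks of the set. The gene spans 461 kb on chromosome 17 from 8525187 to 8986648 on the plus strand and held 37 peaks at 15 sites, 19 peaks in controls and 18 in KO. Of its 15 sites, 3 were called in all 6 lists, and 8 in a single list. Per 10 kb of span it had 0.802 peaks, fewer than Ppp1r1b (16.0), Pde1b (2.59), Gng7 (1.96) and Adcy5 (1.45).

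Site 3 of Pde10a (8628739 to 8629099) held the highest fold enrichment of the set. Values were 14.4, 9.55 and 11.9 in controls 1, 2 and 3 and 21, 36.1 and 16.1 in KO 1, 2 and 3, so every KO library lay above every control. That order held for 2.74% of regions called in all 6 lists. Pileups were also higher in KO, with 15, 11 and 13 in controls and 34, 122 and 30 in KO, as in 19.7% of these regions. Every KO library had more tags than every control, and the part of depth in these pileups was not tested. KO 2 was far above the rest, and its peak ranked at the 99.9th percentile of its list. The other KO values, 21 and 16.1, lay nearer to the highest control value of 14.4. All 6 summits fell within 27 bp of each other, 104 kb into the span, at positions 8628874 to 8628901 and thus far upstream of the first RefSeq start in the window table, whose upstream window ends at 8801744. Fold enrichments were not tested between genotypes because they come from lists called separately.

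Sites 13 and 14 of Pde10a lay next to each other, 381 to 382 kb into the span. At site 13 (8906202 to 8906649) fold enrichments were 9.73, 13.7 and 10.6 in controls and 12.9, 17 and 15.4 in KO, with control 2 inside the KO range. Its pileups of 15, 33 and 22 in controls and 42, 98 and 55 in KO did not overlap, with KO higher. This order was shared with 19.7% of the regions called in all 6 lists, and the part of depth was not tested here either. The 6 summits of site 13 fell within 12 bp. Site 14 (8906754 to 8907349) was weaker, at 9.45, 5.52 and 7.52 in controls and 6.67, 7.24 and 5.03 in KO, and the ranges overlapped. Around the first listed start, site 6 was called in controls 2 and 3 alone (2.60 and 3.68), and site 8, 5843 to 5852 bp downstream of that start, in KO 1 and KO 2 alone (7.64 and 9.57).

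Pde1b, a calcium and calmodulin-dependent phosphodiesterase, had 7 peaks at 3 sites, each shared by at least 2 lists. It spans 27.0 kb on chromosome 15 from 103503034 to 103530056 on the plus strand. Start-proximal site 1 (103503162 to 103503530) was called in control 2, control 3 and KO 3 with fold enrichments of 4.6, 8.02 and 5.82 and pileups of 52, 64 and 26. Its 3 summits lay within 7 bp. Site 2, at 20.8 kb, was called in KO 1 (6.13) and KO 3 (5.39), and site 3, at 26.8 kb and 99.2% of the span, in control 3 (3.57) and KO 2 (5.15). Control 1, the shallowest library, had no peak in the gene.

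**Figure D3:**
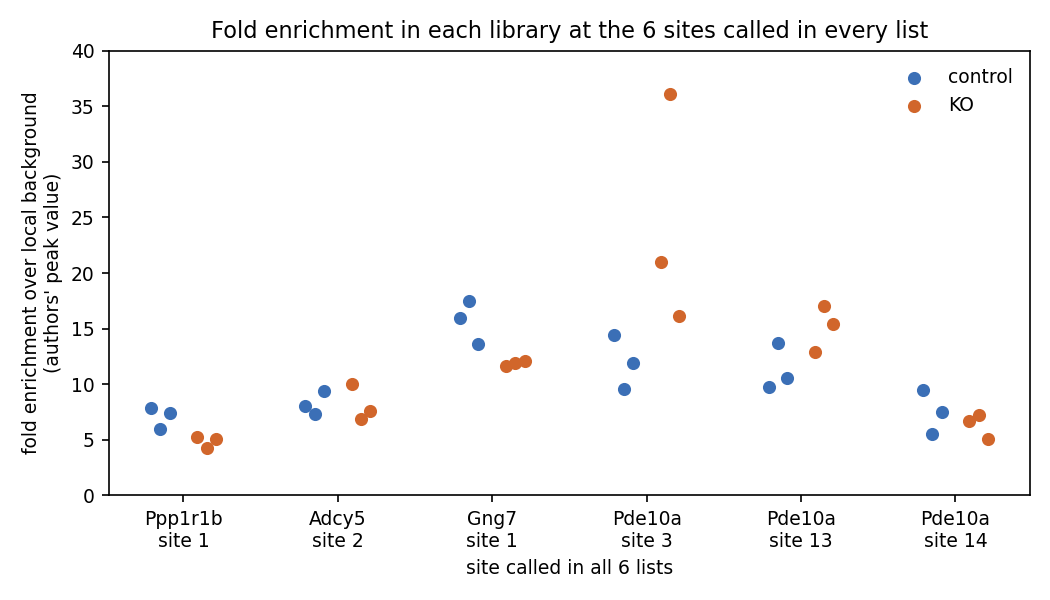
Fold enrichment over local background (y axis, the authors' peak value, highest peak per library) at the 6 sites called in every list; each point is a library, blue control and orange KO. Control points lie above KO points at Ppp1r1b site 1 and Gng7 site 1, KO points lie above control points at Pde10a site 3, and the groups overlap at the other 3 sites.

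Ppp1r1b, which encodes DARPP-32, had the densest calls for its length, 15 peaks in 9.39 kb on chromosome 11 (98348406 to 98357796; strand not in the tables used here). Site 1 (98348748 to 98349293) lay 477 to 503 bp from the lower-coordinate end, and its 6 summits fell within 26 bp. Fold enrichments were 7.87, 6.01 and 7.39 in controls 1, 2 and 3 and 5.26, 4.24 and 5.08 in KO 1, 2 and 3. Pileups were 203, 190 and 165 in controls and 109, 146 and 115 in KO. Covered lengths were 446, 524 and 543 bp in controls and 194, 208 and 218 bp in KO.

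On all 3 measures every control stood above every KO library at this site. Among regions called in all 6 lists, the share with that order was 16.2% for fold enrichment, 2.49% for pileup and 7.71% for covered length. For pileup the site was thus among 10 regions of 402, where the reverse order was seen in 79. Duplicate tags were not handled alike, as control 1 was called with all of them kept. In the other lists the redundant rate of pull-down tags was 0.34 in controls 2 and 3 and 0.43 to 0.47 in KO. The part of duplicates in these 3 measures was not tested. The site was strong in coverage but not in enrichment, with fold enrichment percentiles within its list of 32.8 to 84.4 in controls and 7.53 to 18.2 in KO. In bulk tissue, peak values do not tell apart methylation, RNA per cell and the number of cells of a type, and none of these was tested.

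Site 6 of Ppp1r1b (98356840 to 98357334), at the other end of the gene, was called in every list but that of control 1. Fold enrichments were 3.77 and 4.41 in controls 2 and 3 and 6.85, 4.92 and 5.71 in KO 1, 2 and 3. Both controls lay below the KO libraries, opposite in direction to site 1. How common this order is among regions called in 5 lists was not computed, so it is described only. Pileups there did overlap, at 120 and 101 in controls and 74, 114 and 82 in KO. Summits lay 8.81 kb from the lower-coordinate end in both controls and 8.59 to 8.60 kb in the KO libraries, and all 5 summits spread over 223 bp. This shift in position is described only, since the site was called in 2 controls. Sites 2 to 6 lie inside the overlapping long non-coding RNA gene 1700003D09Rik, so their reads cannot be assigned to either gene without strand. Sites 2 to 5 came from control 3 alone, with fold enrichments of 4.78 to 6.65.

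Ptpn5, which encodes the striatal-enriched phosphatase STEP, spans 56.2 kb on chromosome 7 (47077795 to 47134026, minus strand) and had 2 peaks, both in KO libraries and both just downstream of a RefSeq start. The KO 1 peak (fold enrichment 6.01, pileup 11) had its summit 61 bp from the second listed start, and the KO 2 peak (7.43, pileup 10) had its summit 159 bp from the first. Upstream of these starts the windows contained 66.0% and 48.0% G and C in that order.

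**Figure D4:**
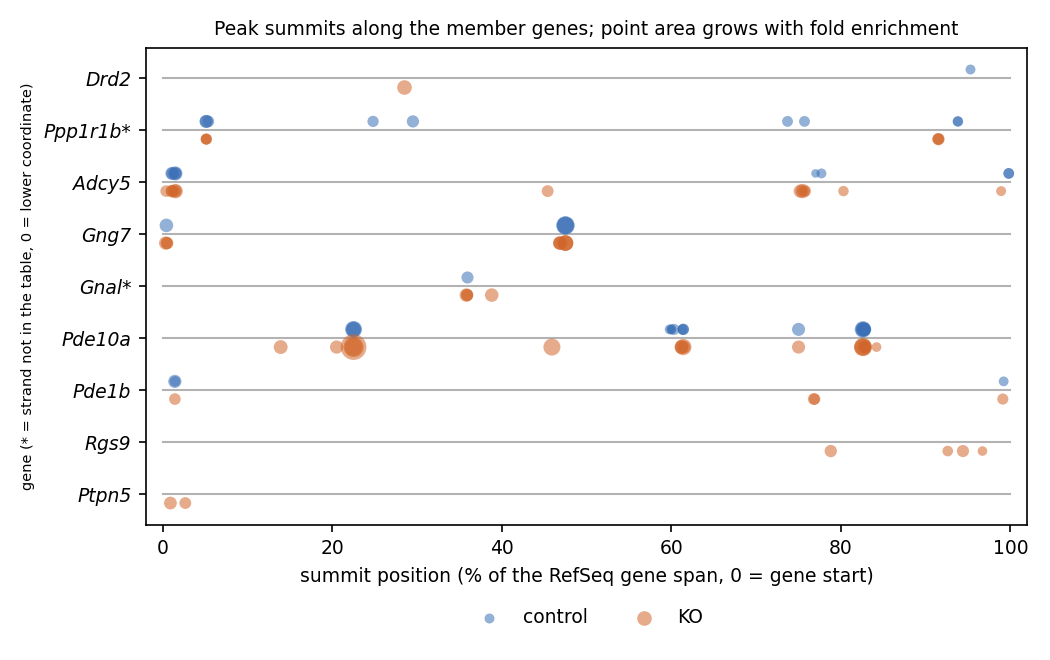
Position of every peak summit along its gene (x axis, percent of the RefSeq span from the gene start; from the lower coordinate for the starred genes without a strand); each row is a gene, points above the line are control, points below are KO, and point area grows with fold enrichment. Summits pile up near the start in Adcy5, in the middle of Gng7 and at several places along Pde10a, and the only 2 summits of Ptpn5 lie near its start.

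Start-proximal summits made up a small part of the set. Of 87 summits in the 7 genes with a strand and a peak, 12 (13.8%) lay within 1000 bp downstream of a RefSeq start, and 31.9% of 16391 summits in all protein-coding genes with a strand did. Their median position was at 60.3% of the span, against 31.1% for all. Pde10a weighs on this with 37 of the 87 summits, of which 2 were near a listed start. In Pde1b 3 of 7 were, in Gng7 4 of 13 and in Ptpn5 2 of 2. Adcy5 had 1 of 22, with its site 2 summits beyond the 1000 bp limit, and Rgs9 and Drd2 had none. Ppp1r1b and Gnal, without a strand, were not counted. By genotype the near-start share in the set was 13.9% in control (5 of 36) and 13.7% in KO (7 of 51). Over all protein-coding genes it was 37.2% in control and 28.1% in KO. Summits share genes and sites, so these shares are descriptions with no test.

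Most sites were not shared. Of the 48 sites, 6 were called in all 6 lists, compared with 2.96% of all regions, and 29 (60.4%) in a single list, compared with 69.0% of all regions. KO 2 alone held 14 of the single-list sites and control 3 alone held 7, while control 1 held 0. Sites called in both genotypes numbered 13, in KO lists alone 23 and in control lists alone 12. Over all regions the corresponding numbers were 2825, 7019 and 3728. Peaks of the set had high coverage for their lists, with median pileup percentiles of 69.6 to 86.5. Their median fold enrichment percentiles were 87.6 in control 1, 26.3 and 19.1 in controls 2 and 3, and 51.9, 52.2 and 27.3 in KO 1, 2 and 3, so control 1 stood apart.

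Other genes of the pathway were taken from a list of 61, of which 46 (75.4%) had a peak in at least 1 list, compared with 26.2% of all protein-coding genes. The 26.2% covers genes of any length and expression, and the part of both in these shares was not tested. In the marker lists checked below, the share ran from 33.3% (choroid plexus) to 83.3% (oligodendrocyte). Of the 46 pathway genes, 8 (17.4%) were in all 6 lists, 7 (15.2%) in KO lists alone and 7 (15.2%) in control lists alone, where the shares over protein-coding genes with a summit were 8.77%, 32.4% and 21.6%. None was called in the 3 lists of a genotype and absent from those of the other. Per library 27, 27 and 23 of them had a peak in controls and 23, 26 and 27 in KO (25.7 ± 2.31 and 25.3 ± 2.08, SD, n = 3; exact permutation p = 1). Of the 16 G protein genes and partners, 11 had a peak and 5 were in all 6 lists. Of 15 phosphatase, inhibitor and target genes 12 had a peak, 2 of them in all 6 lists. Gnas, the alpha subunit that stimulates cyclases in most cells, had fold enrichments of 4.53 to 15.8, Gnb1, a beta subunit, 6.69 to 23.2, and the inhibitory alpha subunits Gnai2 and Gnao1 had 5.98 to 13 and 3.96 to 9.89. Rgs7bp, which anchors RGS proteins of the Rgs9 family at the membrane, had 6.32 to 22.9.

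The remaining genes in all 6 lists were Pde8b, a cyclic AMP phosphodiesterase (4.79 to 14), Ppp1r9b, the scaffold spinophilin that holds protein phosphatase 1 in spines (4.53 to 9.22), and Ppp3ca, a catalytic subunit of calcineurin, which dephosphorylates DARPP-32 (7.57 to 11.5). Of these 8 genes, 4 had groups that did not overlap, in both directions. Gnb1 was higher in controls, at 20.3, 14.3 and 23.2 against 12.5, 6.69 and 10.2 in KO, and so was Gnai2, at 8.04, 9.81 and 13 against 7.52, 5.98 and 6.03. Rgs7bp was higher in KO, at 15.5, 12.6 and 22.9 against 6.32, 12.3 and 6.89 in control, and so was Pde8b, at 6.39, 14 and 7.2 against 5.64, 4.81 and 4.79. Over the 504 protein-coding genes in all 6 lists, the control-higher order was seen in 9.52% and the KO-higher order in 6.35%. These values are the highest peak of a gene in each list and may come from different sites.

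Of the listed genes, all 6 cyclases and all 8 phosphodiesterases had a peak in at least 1 list. So did 6 of 8 genes of protein kinase A and its partners, but only 3 of 8 receptors. Over all protein-coding genes the share was 26.2%, and the part of gene length and expression in these numbers was not tested. Several of these genes were called in a single list, and none of the listed cyclases, protein kinase A genes or receptors was in all 6 lists.

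Markers of the tissue and of other cells were checked by their peaks. Of 11 neuropeptide and transcription factor genes that mark medium spiny neurons, 6 had a peak and none in all 6 lists, with 1, 4 and 4 per list in controls 1 to 3 and 0, 5 and 3 in KO 1 to 3. Oligodendrocyte genes were called in 1, 5 and 5 and in 5, 5 and 4 of 6, and Mbp was in all 6 lists. The cortical excitatory marker Slc17a7 was also in all 6 lists, with 4 of 5 markers of that class called at least once, and astrocyte markers numbered 0 to 2 per list (3 of 6 called at least once). Microglial, interneuron, endothelial and choroid plexus markers had 2 of 5, 2 of 5, 2 of 3 and 1 of 3 genes called. Within the medium spiny neuron list, Foxp1 and Bcl11b were called in 4 lists, Penk and Rarb in 3, Meis2 in 2 and Foxp2 in 1, and Tac1, Pdyn, Isl1, Ebf1 and Six3 in 0. Peak calls are not expression levels, so the share of each cell type in the samples was not tested.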

How the data were processed

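m1A pull-down and input libraries of mouse CPu were sequenced, and 6 peak lists were deposited. Per the labels' protocols, 90% of the fragmented RNA went into the pull-down and 10% served as input. Tools listed in the submitters' processing notes were MACS2 2.2.6, HISAT2 2.1.0 and cutadapt 2.8. Per the file headers, MACS2 called peaks per library with the matching input as background (q-value limit 0.01), with all duplicates kept in control 1 only. Each list holds the authors' pileup (a signal, coverage at the summit), the −log10 of p-value and q-value, and the fold enrichment, a ratio to local background.

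With Python 3.11.15, pandas 2.3.3 and scipy 1.17.1, summits were placed in RefSeq spans (GRCm38.p6). Summits in more than 3 genes (2 peaks) were left out. Peaks sharing at least 1 bp were merged into sites. Named genes were the 10 members, pathway genes in all 6 lists or in the 3 lists of 1 genotype alone, and marker genes in all 6 lists; the other medium spiny neuron genes were named in full, a choice made after their values were seen. Members and lists were chosen with earlier results of these data known. Counts per library were compared with exact two-sided permutation tests over 20 assignments. Placement, merging and the permutation test were tested on simulated data. Alternatives were stricter peaks, lists of equal length, other placement rules and leaving out libraries.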

Additional observations from a re-analysis of the deposited data

How the results depend on the processing

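The excess of KO over control in genes with a peak (2) kept its direction under all 13 alternatives, from 0.5 without control 1 and KO 2 to 2.83 without control 2. With replicate number as a block the difference is the same by construction. Placement by any overlap with the gene span gave the same gene counts. The excess in peaks (5) turned to −3 without control 1 and KO 2 and was 2.33 with lists of equal length, and leaving out a single library gave 0.167 (without KO 2) to 8.17 (without KO 1). The difference in share of peaks (−0.0281 percentage points) turned to 0.0777 with lists of equal length and 0.0222 without summits in several genes. Leaving out single libraries moved it from −0.127 to 0.0643, positive without control 3 (0.0643) or KO 1 (0.0131). For other pathway genes the difference (−0.333) turned to 3 when peaks needed a −log10 q of 5 and to 2.67 when they needed a fold enrichment of 4, and was −3 with lists of equal length. It was 0 without control 1 and KO 2, and ranged from −1.67 to 0.833 with single libraries left out, positive without control 1 (0.333), control 2 (0.333) or KO 1 (0.833). KO-only sites numbered 1 to 2 and control-only sites 0 to 2 with a library left out, and 3 and 3 without control 1 and KO 2. The smallest exact permutation p over these alternatives was 0.2, and 3 libraries against 3 allow 0.1 at best. With replicate number as a block, exact sign-flip p-values were 0.25 for genes, 0.5 for peaks, 0.75 for share and 1 for pathway genes, with differences of 2, 5, −0.0281 and −0.333. The 8 sign assignments of that test allow no p below 0.25, so it could not give a small p for any of them. Libraries sharing a number did not deviate together in their gene calls (correlations −0.0378, −0.0549 and 0.0334 over 6658 genes). Calls from separately called lists of unlike depth cannot settle whether the numbers mark a pairing. The 4 genes in all lists became 5 without control 1, Rgs9 had no peak without KO 2, and Ptpn5 had none with lists of equal length. Drd2 was called in 1 list instead of 2 under 7 of 12 alternatives. Causes were not tested.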
